A study of Mus musculus with 16 samples.

Results

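Aqp4, Gja1, Gjb6, Gjb2, Aldh1l1, Slc4a4 and Atp1b2 are 7 genes whose products build the water, ion and metabolite traffic of the astrocyte membrane, or, for Aldh1l1, mark the cell type. They were taken by name from the 50600 genes counted, and each was measured as counts per 1000000 reads on genes (CPM) and as the Cast share of its allele-specific reads in 12 clones. The cells were F1 hybrids of a 129/Sv mother and a Cast/EiJ father, derived from male or female embryonic stem cells. Every neural progenitor cell (NPC) clone had been grown from a single cell in N2B27 medium with EGF and FGF2. The astrocytes of 5 clones (clone 129, C2 and G4, female, and mC3 and mE6, male) were obtained from such NPCs with FGF2 and BMP4, a growth factor that drives progenitors towards an astrocyte fate. NPCs were sequenced from 3 other clones after poly(A) enrichment, as the astrocytes were (F5, female, and mG2 and mG6, male), and from 4 male clones, Ch3, Ch5, Ch7 and Ch8, after ribosomal RNA depletion. The name clone 129 denotes a clone and not the 129 allele.

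Aqp4 encodes the main water channel of the brain, concentrated in astrocyte endfeet around vessels. Astrocytes are coupled to each other by gap junctions, which are made chiefly of connexin 43 (Gja1) and connexin 30 (Gjb6), with connexin 26 (Gjb2) as a further partner. Slc4a4 encodes the electrogenic sodium bicarbonate cotransporter, Atp1b2 the glial beta subunit of the sodium pump, and Aldh1l1 a cytosolic enzyme that oxidises formyltetrahydrofolate and is widely used to label astrocytes.

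On GRCm38 the RefSeq genes lie on chromosome 10 (Gja1, 56377300 to 56390419), chromosome 14 (Gjb6, 57123301 to 57133611, and Gjb2, 57098602 to 57104702), chromosome 6 (Aldh1l1, 90550768 to 90599171), chromosome 5 (Slc4a4, 88793858 to 89239656) and chromosome 11 (Atp1b2, 69599728 to 69605978). From the RefSeq promoter table (GRCm38.p6), 6 windows of 5 of the 7 genes were searched. No window of Aqp4 or Atp1b2 was searched, so the motif results below do not cover these genes. The 250 bases before the transcript start that the table uses are shown for 4 of the 5 genes. Reads of these 4 favoured 1 allele in some or all clones. The bases are written 5′ to 3′ on the strand of the gene. For Aldh1l1 that start lies inside the gene position given above, so that the last bases shown belong to the gene. Capitals mark GGCGCC, a motif of Smad proteins, the mediators of BMP signals.
Gja1, chr10:56377050-56377299, plus strand: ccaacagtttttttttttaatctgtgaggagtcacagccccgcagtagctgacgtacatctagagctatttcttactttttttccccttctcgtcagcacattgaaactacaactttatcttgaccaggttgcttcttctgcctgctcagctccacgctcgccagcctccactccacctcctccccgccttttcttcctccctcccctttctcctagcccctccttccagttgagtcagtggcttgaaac
Aldh1l1, chr6:90550543-90550792, plus strand: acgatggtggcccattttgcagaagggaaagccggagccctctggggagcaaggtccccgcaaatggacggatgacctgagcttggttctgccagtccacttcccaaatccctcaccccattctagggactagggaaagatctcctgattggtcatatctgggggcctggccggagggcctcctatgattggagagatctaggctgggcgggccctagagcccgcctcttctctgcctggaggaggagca
Gjb6, chr14:57133612-57133861, minus strand: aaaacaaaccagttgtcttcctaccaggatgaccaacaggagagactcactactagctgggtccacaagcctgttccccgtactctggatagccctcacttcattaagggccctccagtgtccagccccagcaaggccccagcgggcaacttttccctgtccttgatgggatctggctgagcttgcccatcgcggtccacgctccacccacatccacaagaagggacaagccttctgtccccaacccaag
Gjb2, chr14:57104703-57104952, minus strand: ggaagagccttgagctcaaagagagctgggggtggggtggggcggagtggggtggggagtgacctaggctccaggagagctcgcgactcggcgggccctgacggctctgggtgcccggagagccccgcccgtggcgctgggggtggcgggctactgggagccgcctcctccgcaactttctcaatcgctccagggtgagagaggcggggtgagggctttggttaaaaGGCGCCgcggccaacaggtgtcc
GGCGCC, searched on both strands, was found in 9.59% of 32851 such windows, and here in that of Gjb2 and in 1 of the 2 of Slc4a4. TTGGCA (nuclear factor I, in 12.3% of windows) and ATTGTT (Sox factors, in 9.42%) were in none of the 6. These matches describe the letters of the windows only.

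Each clone gave 1 library, except that each Ch clone gave 2, which were summed for its Cast share. Astrocyte libraries held between 78257443 and 93963293 reads on genes, poly(A) NPC libraries between 69925081 and 105892734, and Ch libraries between 20871111 and 30920672. Between 26753109 and 32518327 reads of an astrocyte library could be given to an allele, against 4193927 to 5971768 of a Ch library. The median Cast share of autosomal genes lay between 48.8% and 49.9% in the 12 clones. No astrocyte clone had its NPC library here, so cell type and clone cannot be told apart in any comparison of astrocytes with NPCs, and the p-values measure the spread between clones (or, among the Ch clones, between libraries of a clone). Libraries of 2 clones stood apart on chromosome 18, which carries Aqp4. In the NPC clone mG2 the median Cast share over 292 genes of that chromosome was 0.0682%, and in the astrocyte clone G4 it was 65.2% over 298 genes, with a median read dosage 0.52 higher (log2) than in the other clones of its kind. The same dosage was 0.033 higher in mG2 than in the other poly(A) NPC clones.

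The markers of progenitors and proliferation went down in the astrocytes. The 8 genes of this list summed to between 193 and 349 CPM in the astrocytes and between 2736 and 3209 CPM in the poly(A) NPCs, and 6 of them fell, the proliferation gene Mki67 and the intermediate filament gene Nes included. The 9 astrocyte markers summed to between 2336 and 6172 CPM against 1401 to 2438 CPM, with 3 genes higher (the filament gene Gfap, the glutamate transporter gene Slc1a2 and Id3), none lower and 6 not past the test. Gfap ranged from 61.9 to 2092 CPM in the astrocytes and from 0.680 to 2.25 CPM in the poly(A) NPCs. Of all genes tested between these libraries 13.0% were higher and 12.6% lower in the astrocytes.

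Some markers of other cells also moved. The 7 neuron markers summed to between 448 and 1289 CPM in the astrocytes and 991 to 1779 CPM in the poly(A) NPCs (1 of 7 higher, Snap25). Most of each sum was Map2, at 430 to 1259 CPM against 976 to 1756 CPM, which did not pass the test (edgeR, adjusted p = 0.112). The 8 oligodendrocyte lineage markers summed to between 300.1 and 1658 CPM against 1792 to 2141 CPM (1 of the 6 tested lower). The 5 meningeal fibroblast markers summed to between 3.79 and 206 CPM in the astrocytes, highest in C2 through the collagen gene Col1a1, against 1.96 to 3.29 CPM (1 of the 4 tested higher, Col1a1), while Col1a2 stayed at or below 0.0734 CPM in all 8 libraries. The 4 endothelial markers summed to between 19.2 and 99.0 CPM against 0.954 to 3.13 CPM, nearly all of it Kdr. Both endothelial genes that could be tested rose, Kdr and Pecam1 (0.227 to 1.74 CPM against 0.100 to 0.159 CPM, adjusted p = 0.025), while Cldn5 was at 0 in every one of the 8 libraries. The 4 ependymal markers summed to between 4.71 and 15.3 CPM against 19.3 to 35.4 CPM (1 of the 2 tested lower). Microglial markers (0.309 to 1.93 CPM against 0.179 to 0.379 CPM for 5 genes, the 1 tested not past the test) and pluripotency markers (0.426 to 1.98 CPM against 1.19 to 2.12 CPM for 5 genes, 1 higher and 1 lower of the 3 tested) were low. The part of these lists in the results below was not tested.

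**Figure D1:**
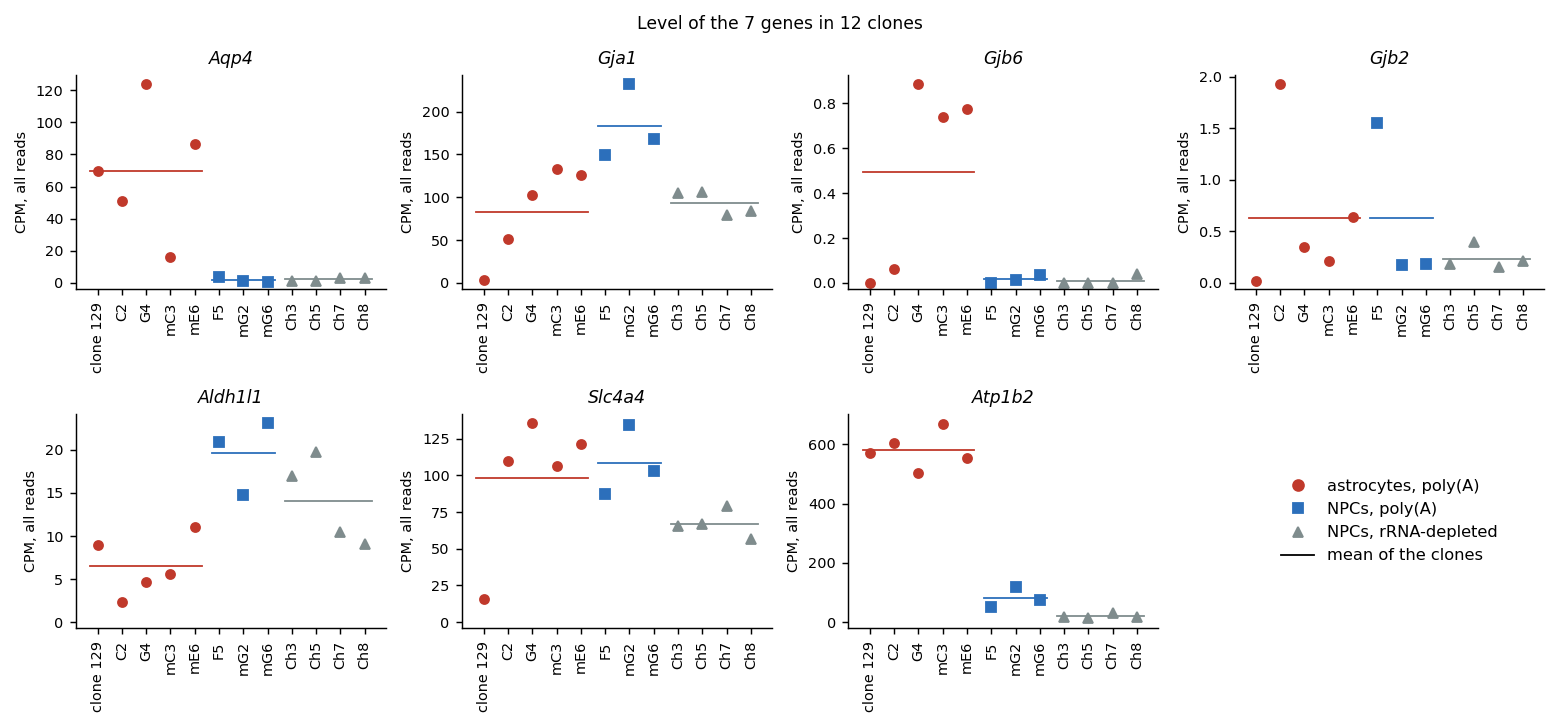
Level of each gene in CPM (y axis, linear, a scale for each gene) in the 12 clones (x axis). Points are clones, with the 2 libraries of each Ch clone summed, and lines are the means of the clones of a kind. Aqp4 and Atp1b2 were higher in every astrocyte clone than in every NPC clone. Against the poly(A) NPCs alone, 15.2% of the genes tested were. Gja1 and Slc4a4 fell far below the other astrocytes in clone 129, and Gjb6 was near 0 outside G4, mC3 and mE6.

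Of the 7 genes, Aqp4 and Atp1b2 rose and Aldh1l1 fell in the astrocytes against the poly(A) NPCs, while Gja1, Gjb6, Gjb2 and Slc4a4 did not pass the test (edgeR's quasi-likelihood test with Benjamini-Hochberg adjustment over 18192 genes, threshold 0.05). Over all genes tested 25.5% passed, 13.0% as higher and 12.6% as lower. The median log2 fold change was 0.07 over the 7 genes and 0.08 over all genes tested. In these bulk samples a change in the number of cells that express a gene and a change in RNA per cell cannot be told apart.

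Aqp4 stood at 69.7 CPM in clone 129, 51.0 CPM in C2, 124 CPM in G4, 16.1 CPM in mC3 and 86.8 CPM in mE6. In the poly(A) NPCs it stood at 3.56 CPM in F5, 1.14 CPM in mG2 and 0.526 CPM in mG6. The lowest astrocyte clone was thus above the highest NPC clone, a separation that 15.2% of the genes tested shared in this direction. The log2 fold change was 5.37 (SE 0.93, adjusted p = 0.00535), and Aqp4 was higher in all 5 astrocyte clones. Without G4, whose chromosome 18 had a raised dosage, it was 4.99 (adjusted p = 0.0105), and without mG2 it was 5.12 (adjusted p = 0.0303). The Ch clones, at between 0.943 and 3.13 CPM, lay in the range of the other NPCs.

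Atp1b2 was the most even of the 7 among the astrocytes. It measured 571 CPM in clone 129, 605 CPM in C2, 503 CPM in G4, 670 CPM in mC3 and 554 CPM in mE6, against 51.0 CPM in F5, 118 CPM in mG2 and 73.8 CPM in mG6. The groups did not overlap, as for 15.2% of the genes tested in this direction. The log2 fold change was 2.90 (SE 0.29, adjusted p = 0.00045), a 7.47-fold rise. The Ch clones were lower again, at 13.9 to 29.5 CPM, but they differ from the poly(A) NPCs in RNA preparation, which cannot be told apart from the clones. The SD of log2 CPM over the astrocyte clones was 0.15 for Atp1b2, at the 5.12 percentile of the genes tested.

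Aldh1l1 was lower in the astrocytes than in the progenitors, although it is used to label astrocytes. It measured 8.94 CPM in clone 129, 2.35 CPM in C2, 4.67 CPM in G4, 5.55 CPM in mC3 and 11 CPM in mE6. The poly(A) NPCs had 20.9 CPM in F5, 14.7 CPM in mG2 and 23.2 CPM in mG6, all above the highest astrocyte clone, a separation that 16.6% of the genes tested shared in this direction. Aldh1l1 fell by 1.55 on the log2 scale (SE 0.45, adjusted p = 0.0366). The call was lost without any one of F5, mG2, mG6, G4 or mC3 (adjusted p from 0.0655 to 0.1), while the fold change stayed between -1.90 and -1.39. The Ch clones, with 9.03 to 19.8 CPM, bridged the lower of the poly(A) NPCs and the highest of the astrocytes.

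Gja1 was expressed in progenitors and astrocytes alike and varied widely between astrocyte clones. It stood at 149 CPM in F5, 232 CPM in mG2 and 168 CPM in mG6. Among the astrocytes it stood at 103 CPM in G4, 133 CPM in mC3 and 126 CPM in mE6, at 51.1 CPM in C2 and at 2.81 CPM in clone 129. All 5 astrocyte clones were below all 3 of these NPC clones, a separation that 16.6% of the genes tested shared in this direction. The spread between clones was wide, and the log2 fold change of -1.06 (SE 0.85, adjusted p = 0.393) did not pass the test. Without clone 129 it was -0.75 (adjusted p = 0.121). The Ch clones held 78.8 to 107 CPM.

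Slc4a4 did not separate the cell types. It measured 110 CPM in C2, 136 CPM in G4, 106 CPM in mC3 and 122 CPM in mE6, against 87.3 CPM in F5, 134 CPM in mG2 and 103 CPM in mG6, while clone 129 had 16.0 CPM, below all of these. The log2 fold change was -0.06 (SE 0.56, adjusted p = 0.95), and without clone 129 it was 0.22 (adjusted p = 0.431). The Ch clones held 56.9 to 78.9 CPM.

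The genes of connexin 30 and connexin 26 lie next to each other on chromosome 14, 18598 bases apart, and both were scarce. Gjb6 had 71 reads in G4, 58 in mC3 and 73 in mE6, which makes 0.885, 0.741 and 0.777 CPM, but 5 reads in C2 and 0 in clone 129. The poly(A) NPCs had 0, 1 and 3 Gjb6 reads and the Ch clones 2 reads in all, both in Ch8. The log2 fold change was 4.87 (SE 1.72, adjusted p = 0.0686) and missed the threshold. It passed without clone 129 (5.20, adjusted p = 0.0172) and in DESeq2 (4.93, adjusted p = 0.00581), and missed it without F5, mG2 or mG6 (adjusted p from 0.122 to 0.19) and without C2 (adjusted p = 0.0626). Gjb6 passed the filter on low counts only through G4, mC3 and mE6, and without any one of these it was not tested.

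Gjb2 did not go with cell type. Its highest values were 1.93 CPM in the astrocyte clone C2 and 1.55 CPM in the NPC clone F5, and all other clones lay between 0.0227 CPM (2 reads, clone 129) and 0.639 CPM (mE6). The log2 fold change was 0.07 (SE 1.21, adjusted p = 0.974), with the direction set by single clones: it was -1.04 without C2. G4, mC3 and mE6, the clones with Gjb6 reads, had 0.349, 0.217 and 0.639 CPM of Gjb2.

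In clone 129, 4 of the 7 genes were lower than in any other astrocyte clone, as were 18.6% of the 18192 genes tested. The clone was singled out after its values were seen, and the count carries no test. Against the mean of the other 4 clones Gja1 was 36.7-fold lower, Gjb2 34.5-fold lower, on 2 reads, and Slc4a4 7.39-fold lower, and Gjb6 had no read, where 3 reads are the limit that a count of 0 allows. In the same library Aqp4 (ratio 1.01) and Atp1b2 (ratio 0.979) were at the mean of the other clones, and Aldh1l1 was 1.51 times that mean. The SD of log2 CPM over the 5 astrocyte clones was 2.39 for Gja1 and 2.40 for Gjb6, at the 96.4 percentile of the genes tested, 2.04 for Gjb2, 1.35 for Slc4a4, 1.14 for Aqp4 and 0.84 for Aldh1l1, beside a median of 0.48 over all genes.

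Divided by the length of the longest transcript, the mean level in the astrocytes was 204 CPM per kilobase for Atp1b2, 26.8 for Gja1, 13.5 for Aqp4, 12.3 for Slc4a4, 1.56 for Aldh1l1, 0.262 for Gjb2 and 0.234 for Gjb6. In the poly(A) NPCs the order was headed by Gja1 with 59.0 CPM per kilobase, followed by Atp1b2 with 28.5, Slc4a4 with 13.6, Aldh1l1 with 4.69, Aqp4 with 0.34, Gjb2 with 0.264 and Gjb6 with 0.00807. Aqp4 thus stood above Aldh1l1 in the astrocytes and below it in the NPCs.

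The genes whose centred log2 CPM over the 8 poly(A) libraries lay nearest to each member were named by the root mean square difference. For Atp1b2 the 2 given here were Tm6sf1 (0.237) and Tub (0.241). For Aqp4 they were Trim29 (0.512), Smad9 (0.671) and Smad7 (0.705). For Gja1 they were Mettl5 (0.348), Dusp18 (0.439) and Nlgn3 (0.527), for Slc4a4 Il17ra (0.31), Stx11 (0.364) and Prkcq (0.385), and for Aldh1l1 Diap3 (0.348), Prcp (0.369) and Tcte3 (0.384). For the scarce Gjb6 they were Nrip3 (0.562), Gm12296 (0.693) and Serpinb9 (0.699), and for Gjb2 Hnmt (0.749), G0s2 (0.751) and Gng11 (0.797). No member was among the 3 nearest genes of another.

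**Figure D2:**
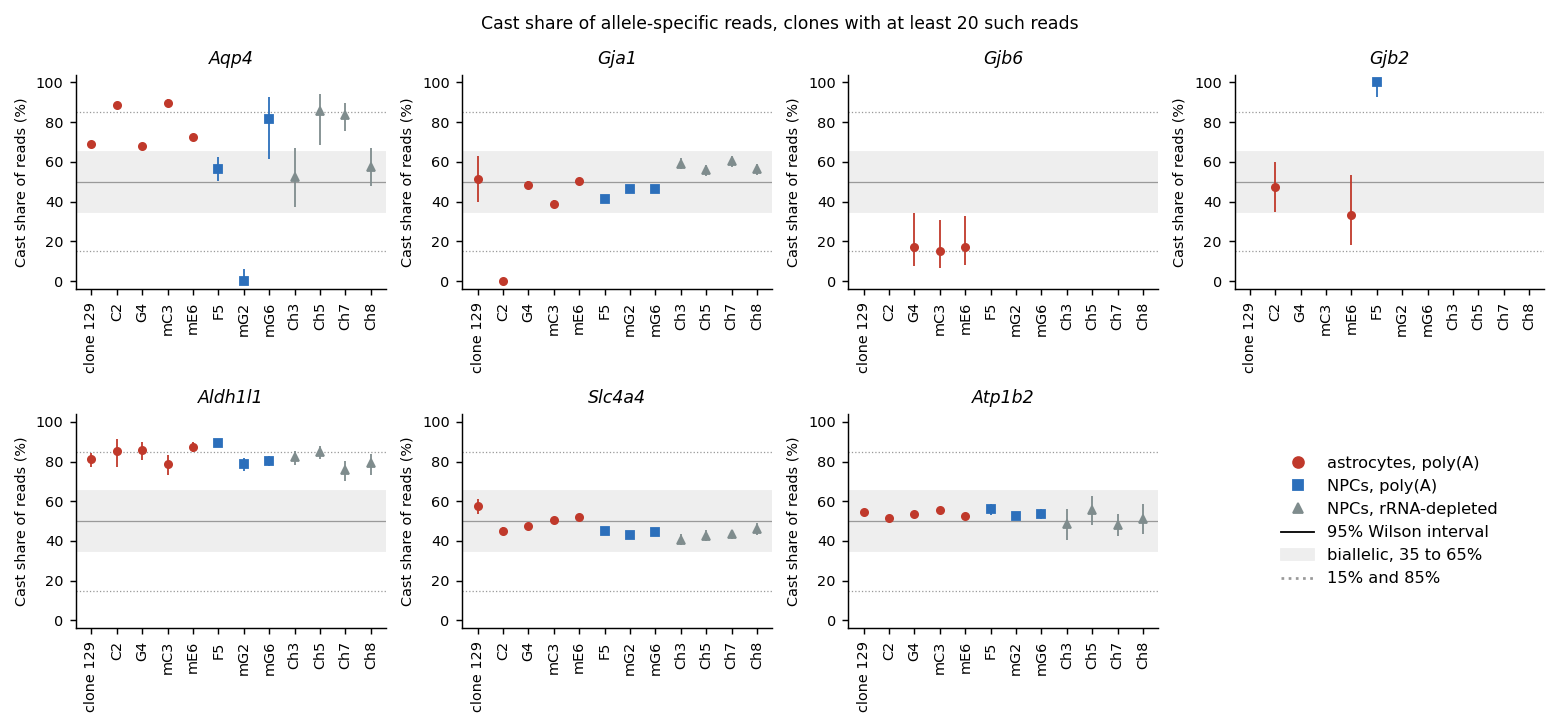
Cast share of allele-specific reads (y axis, %) of the 7 genes in each clone with at least 20 such reads (x axis), with 95% Wilson intervals. The grey band is the biallelic range of 35 to 65%, and dotted lines mark 15% and 85%. Gja1 was within the band in all clones but C2, at 0.262%, Aldh1l1 was above 75% in all 12 clones, and Aqp4 ranged from 0% to 89.9%.

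A share under 15% or over 85% Cast was called monoallelic, one from 35 to 65% biallelic and any other biased, where at least 20 allele-specific reads were present. The 7 genes gave 66 such values, of which 10 were monoallelic, 17 biased and 39 biallelic. Over all autosomal genes 5.57% of the gene and clone values were monoallelic and 82.0% biallelic. The members' departures came from Aqp4, Aldh1l1, the connexin genes on chromosome 14 and a single value of Gja1, while Slc4a4 and Atp1b2 were biallelic in all 12 clones. Of the monoallelic values 4 were of Aqp4, 4 of Aldh1l1, 1 of Gja1 and 1 of Gjb2. That of Aqp4 in mG2 was shared with its chromosome, which the 5.57% includes too. Those of Aldh1l1 came from a gene at 75.5 to 89.4% over the 12 clones. The intervals given for single shares are 95% Wilson intervals and cover counting error only.

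Gja1 was read almost only from the 129 allele in the astrocyte clone C2. Of 1146 allele-specific reads there 3 were Cast, a share of 0.262% (interval 0.0891 to 0.767%). The share was 51.4% in clone 129 on 70 reads, 48.3% in G4, 39.0% in mC3 and 50.2% in mE6. It was 41.5% in F5, 46.3% in mG2 and 46.5% in mG6, and 59.1, 55.7, 60.4 and 56.3% in Ch3, Ch5, Ch7 and Ch8. Of the 8617 autosomal genes with a share in all 12 clones, 15.4% were likewise monoallelic in at least 1 clone and biallelic in at least 1. This count includes genes of chromosome 18, where mG2 had a median Cast share of 0.0682%, and is raised by them.

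The chromosome around Gja1 was balanced in C2. The median over 55 genes within 10 Mb on either side was 48.3%, and the 8 nearest genes with a share ran from 44.3% (Smpdl3a) to 64.8% (Fam184a), with Serinc1 at 46.1% on 17421 reads and Fabp7 at 52.5%. Per allele, levels are given as allele-specific reads per 1000000 reads on genes (RPM). The 129 allele of Gja1 gave 14.3 RPM in C2, 15 RPM in G4, 23.1 RPM in mC3 and 17.1 RPM in mE6. The Cast allele gave 0.0376 RPM in C2, 13.9 RPM in G4, 14.7 RPM in mC3 and 17.3 RPM in mE6. The 129 allele of C2 was thus close to that of G4, and its Cast allele was far below that of G4, mC3 and mE6. The level of 51.1 CPM in C2 is 1 value with no replicate. In clone 129 both alleles were low together, at 0.386 RPM (129) and 0.408 RPM (Cast).

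**Figure D3:**
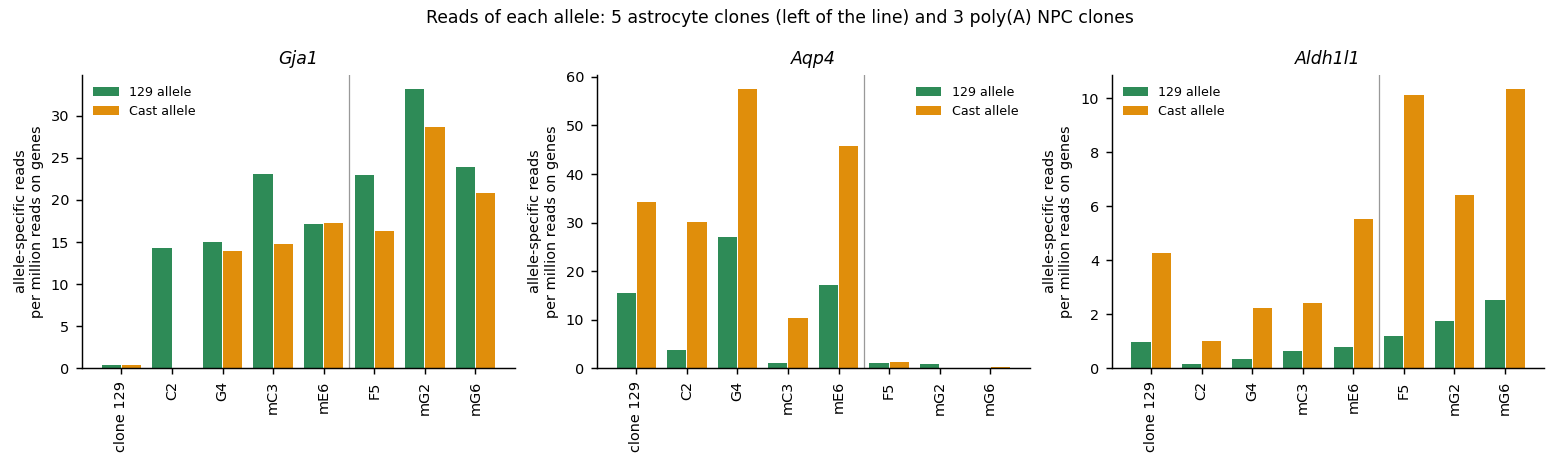
Allele-specific reads per 1000000 reads on genes (y axis, from 0) for the 129 allele (green) and the Cast allele (orange) of Gja1, Aqp4 and Aldh1l1 in the 5 astrocyte clones and, right of the line, the 3 poly(A) NPC clones (x axis). C2 had 14.3 RPM of the 129 allele of Gja1 and almost none of the Cast allele, and clone 129 had little of either.

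In the poly(A) NPCs the Gja1 share was on the 129 side of 50% and in the Ch clones on the Cast side, with no overlap (41.5 to 46.5% against 55.7 to 60.4%). Of 9042 autosomal genes 11.2% separated in this direction and 12.8% in the other, so that such a gap is common between these sets, which differ in RNA preparation and clones. The Gja1 shares of the astrocytes and the poly(A) NPCs did not differ past the test (log2 ratio of Cast to 129 reads lower by 0.61, SE 1.65, adjusted p = 0.904, edgeR over 10959 genes). The difference was carried by C2: without it the sign turned (0.14, adjusted p = 0.835).

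Aqp4 leaned to the Cast allele in all 5 astrocyte clones, at 68.8% in clone 129, 88.6% in C2, 68.1% in G4, 89.9% in mC3 and 72.7% in mE6, each on 911 or more allele-specific reads. The log2 ratio of Cast to 129 reads was 1.94 (SE 0.43, adjusted p = 0.0266, edgeR against equal shares over 11529 genes, of which 29.5% passed). C2 and mC3 were past 85%, and their intervals lay above those of the other astrocyte clones. In G4 the Aqp4 share was close to that of its chromosome, with a median of 64.6% over the genes within 10 Mb, whereas in the other astrocyte clones this median was between 47.4 and 49.2%. Without G4 the log2 ratio was 2.16 (adjusted p = 0.0416). The call was lost without C2 (1.67, adjusted p = 0.0721), mC3 (1.63, adjusted p = 0.0631) or mE6 (2.08, adjusted p = 0.0667), with the direction kept in each.

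The 2 clones with the highest Cast share of Aqp4 had the fewest reads of its 129 allele. It stood at 1.18 RPM in mC3 and 3.88 RPM in C2, against 15.5 RPM in clone 129, 17.2 RPM in mE6 and 26.9 RPM in G4. The Cast allele stood at 10.5 RPM in mC3, 30.2 RPM in C2, 34.2 RPM in clone 129, 45.7 RPM in mE6 and 57.6 RPM in G4. The clones thus had the same order for either allele and for the total level, of which the alleles are a part.

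In the NPCs, where Aqp4 is scarce, its share was 56.6% in F5 (265 reads), 81.8% in mG6 (22 reads, interval 61.5 to 92.7%) and 0% in mG2, where 0 of 61 reads were Cast, which allows a share of up to 4.92%. The absence of Cast reads in mG2 was shared with the chromosome: genes within 10 Mb had a median of 0.0733%, and the 8 nearest genes were between 0 and 0.452%. The Ch clones gave 52.5% in Ch3, 85.7% in Ch5, 83.8% in Ch7 and 57.6% in Ch8, on 28 to 99 reads. The 7 NPC clones together did not differ from equal shares past the test (log2 ratio 0.65, SE 0.94, adjusted p = 0.61), and without mG2 the ratio was 1.23 (adjusted p = 0.0634). Astrocytes and poly(A) NPCs did not differ past the test either (log2 difference 2.42, SE 1.80, adjusted p = 0.649). Without mG2 and G4 it was 1.05 (adjusted p = 0.722).

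**Figure D4:**
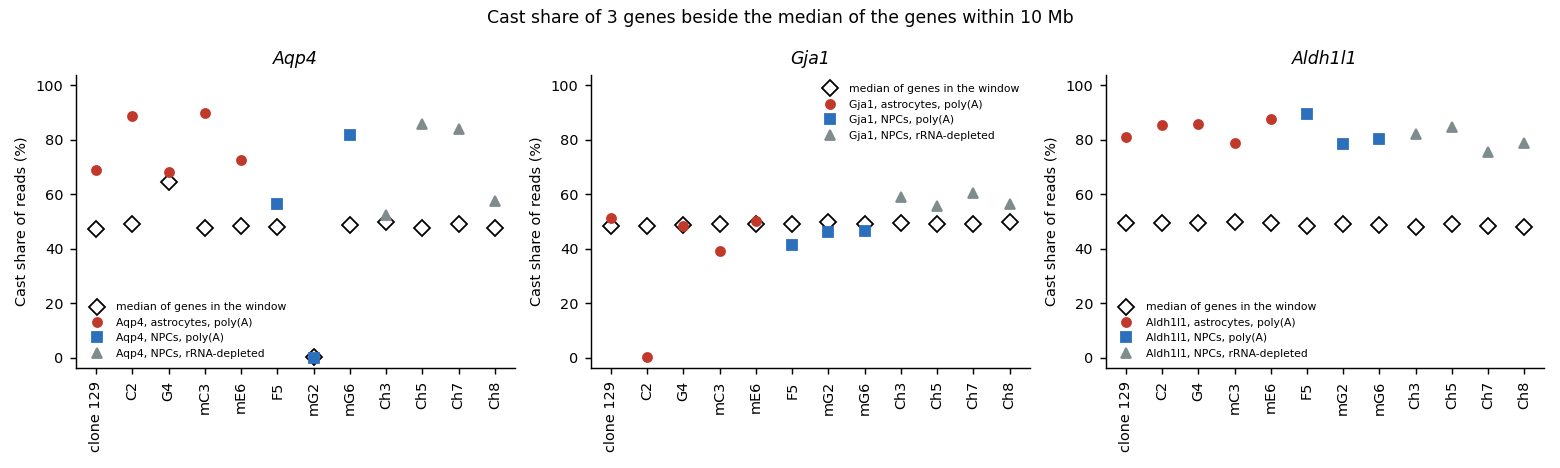
Cast share (y axis, %) of Aqp4, Gja1 and Aldh1l1 (filled symbols) and the median of the genes within 10 Mb on either side (open diamonds) in the 12 clones (x axis). Aqp4 met the median of its surroundings in G4 (68.1% beside 64.6%) and mG2 (0% beside 0.0733%), Gja1 left a balanced region in C2, and Aldh1l1 was above its region in every clone.

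Aldh1l1 was read mostly from the Cast allele in all 12 clones. The share was 81.2% in clone 129, 85.4% in C2, 86.0% in G4, 78.8% in mC3, 87.5% in mE6, 89.4% in F5, 78.5% in mG2 and 80.4% in mG6, and 82.1, 84.7, 75.5 and 79.0% in Ch3, Ch5, Ch7 and Ch8, on 96 to 1199 reads. No clone was in the biallelic range, and 55 of the 8617 genes with a share in all 12 clones (0.638%) were above 65% Cast in each. Genes within 10 Mb had medians of 48.0 to 49.7%.

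The log2 ratio of Cast to 129 reads of Aldh1l1 was 2.39 in the astrocytes (SE 0.17, adjusted p = 0.00148, edgeR) and 2.17 in the 7 NPC clones (SE 0.18, adjusted p = 0.000156, edgeR over 10873 genes, of which 42.1% passed, with both RNA preparations in the fit). Both calls held without any single clone. The difference between astrocytes and poly(A) NPCs was 0.07 (SE 0.32, adjusted p = 0.954), while the level of the gene fell. The Cast allele gave 1.03 to 5.51 RPM in the astrocytes and 6.44 to 10.4 RPM in the poly(A) NPCs, and the 129 allele 0.175 to 0.987 RPM and 1.2 to 2.53 RPM.

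Slc4a4 stayed close to equal shares with a lean to the 129 allele in the NPCs. Its share was 45.0% in F5, 43.1% in mG2, 44.5% in mG6 and 40.6 to 45.9% in the Ch clones, and the log2 ratio over the 7 NPC clones was -0.37 (SE 0.04, adjusted p = 0.000509, edgeR). All 7 clones were below 50%. The astrocytes had 57.6% in clone 129, 45.2% in C2, 47.7% in G4, 50.6% in mC3 and 52.1% in mE6, and did not differ from equal shares past the test (0.04, SE 0.11, adjusted p = 0.832). The lowest astrocyte clone was just above the highest poly(A) NPC clone, as for 7.83% of 9080 autosomal genes (6.99% separated the other way), and the difference of 0.37 (SE 0.15, adjusted p = 0.343) did not pass; of all genes tested in this comparison 0.703% did.

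Atp1b2 stayed in the biallelic range in all 12 clones, with a small lean to the Cast allele in the astrocytes. The share was 54.7% in clone 129, 51.5% in C2, 53.6% in G4, 55.4% in mC3 and 52.7% in mE6, 52.7 to 55.9% in the poly(A) NPCs and 48.0 to 55.4% in the Ch clones. Its log2 ratio in the astrocytes of 0.21 (SE 0.04, adjusted p = 0.0244, edgeR) passed the test on 10351 or more reads a clone, a mean share of 53.6% ± 1.54 (SD, n = 5). Leaving out clone 129, G4, mC3 or mE6 ended the call (adjusted p from 0.0556 to 0.0793). In the NPCs the ratio was 0.13 (SE 0.07, adjusted p = 0.18). Both alleles rose with the total: the 129 allele gave 59.8 to 84.8 RPM in the astrocytes against 5.48 to 14.2 RPM in the poly(A) NPCs, and the Cast allele 69.2 to 105 RPM against 6.94 to 15.8 RPM.

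The 2 connexin genes of chromosome 14 had few allele-specific reads. Gjb6 was at 17.2% Cast in G4 (29 reads), 15.2% in mC3 (33 reads) and 17.1% in mE6 (35 reads), with intervals that together ran from 6.65 to 34.6%. All 3 clones were on the 129 side. Gjb2 was at 47.4% in C2 (57 reads, interval 35 to 60.1%), 33.3% in mE6 (24 reads, interval 18 to 53.3%) and 100% in the NPC clone F5, where all 49 reads were Cast (interval 92.7 to 100%). C2 and F5, the clones with the most Gjb2, thus had intervals that did not overlap. In mE6, the 1 clone with a share for both genes, the intervals of Gjb6 and Gjb2 overlapped. The genes within 10 Mb of these 2 had medians of 48.8 to 51.6% in all 12 clones. Neither gene had enough reads to enter the tests of shares.

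The Ch clones, each with 2 libraries, allowed a test of differences between clones against the spread between libraries (edgeR, 17095 genes, of which 16.6% passed). Aqp4, Gja1, Aldh1l1 and Atp1b2 differed between the 4 clones, Gjb2 and Slc4a4 did not pass, and Gjb6 was too scarce to be tested. Aqp4 was at 1.77 and 1.20 CPM in the libraries of Ch3 and 1.09 and 0.771 CPM in those of Ch5, and at 2.68 and 3.51 CPM in Ch7 and 2.57 and 3.73 CPM in Ch8. The highest and lowest clone were 1.82 apart on the log2 scale (adjusted p = 0.00643).

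Aldh1l1 showed the reverse order: it was at 16.9 and 17.1 CPM in Ch3 and 19.6 and 20.04 CPM in Ch5, against 9.80 and 11.2 CPM in Ch7 and 8.91 and 9.17 CPM in Ch8 (log2 range 1.06, adjusted p = 0.000221). Gja1 went the same way over a narrow range, with 98.4 to 110 CPM in the libraries of Ch3 and Ch5 and 74.1 to 88.1 CPM in those of Ch7 and Ch8 (0.39, adjusted p = 0.0139), and the call was lost without the second library of Ch3 or the first of Ch7 (adjusted p = 0.0775 and 0.0831). Atp1b2 was highest in Ch7, at 29.5 CPM in both libraries, and 13.2 to 22.1 CPM elsewhere (1.19, adjusted p = 0.00127). Slc4a4 (0.50, adjusted p = 0.211) and Gjb2 (1.24, adjusted p = 0.709) did not pass. Slc4a4 passed with the library number as a block (adjusted p = 0.0164), with no filter on low counts (adjusted p = 0.000269) and without the first library of Ch5 (adjusted p = 0.0446). All 4 clones are male.

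Of the shares, that of Aqp4 differed between the Ch clones (log2 range 2.35, adjusted p = 0.0201, edgeR over 11428 genes, of which 8.86% passed). Its libraries gave 65 and 40% Cast in Ch3, 89.5 and 77.8% in Ch5, 80.4 and 86.8% in Ch7 and 59.5 and 56.1% in Ch8, on 9 to 57 reads each, so that Ch5 and Ch7 were above Ch3 and Ch8 in every library. The call was lost without either library of Ch7 or Ch8 (adjusted p from 0.0517 to 0.242), and Aqp4 could not be tested without a library of Ch5, where fewer than 20 reads remained. In Ch5 and Ch7 the genes within 10 Mb had medians of 47.5 and 49.1%. The shares of Gja1 (adjusted p = 0.725), Aldh1l1 (adjusted p = 0.411), Slc4a4 (adjusted p = 0.768) and Atp1b2 (adjusted p = 0.941) did not pass.

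**Figure D5:**
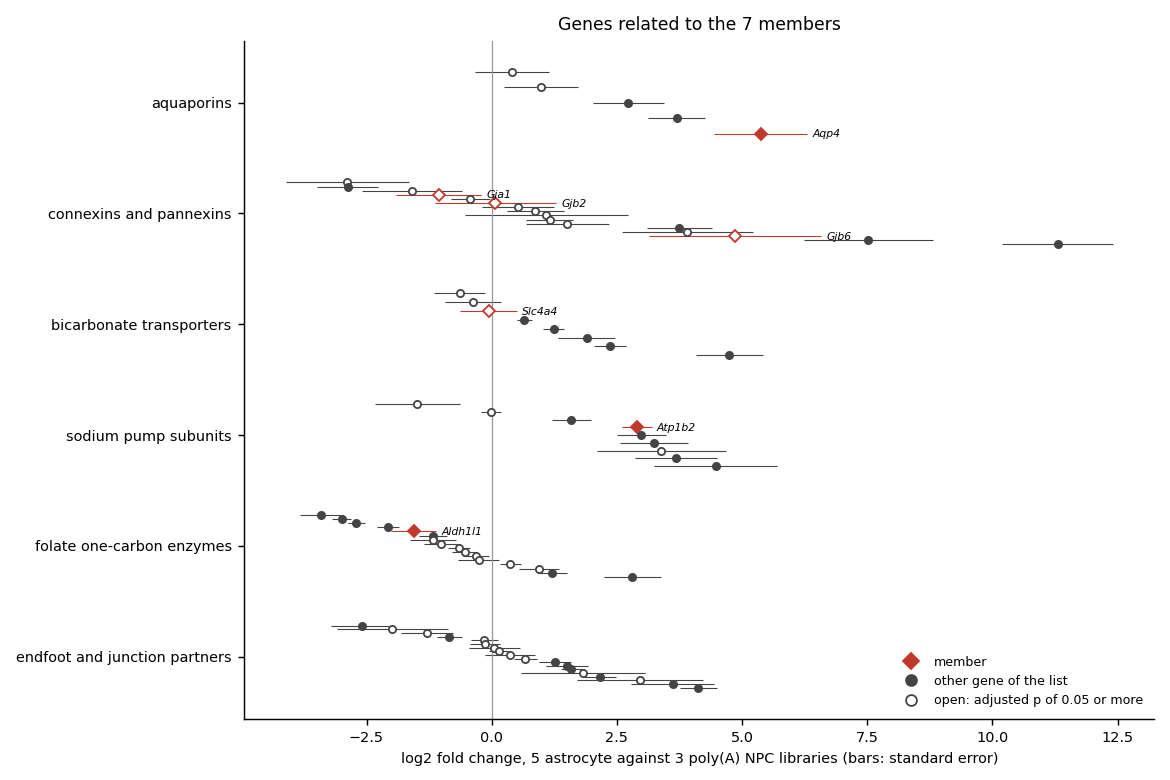
Log2 fold change of the astrocyte against the poly(A) NPC libraries (x axis, bars are standard errors) for the tested genes of 6 related lists (y axis). Red diamonds are the 7 members, filled symbols passed the test, and names are given for the members. Sodium pump, aquaporin and bicarbonate transporter genes that passed were all higher, and of the folate enzymes 6 fell and 2 rose. Over all genes tested 13.0% rose and 12.6% fell.

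Lists of genes related to the members were described by counts. Over all 18192 genes tested between astrocytes and poly(A) NPCs, 13.0% rose and 12.6% fell. Of 12 aquaporins 5 could be tested, and 3 of them rose with a median log2 fold change of 2.73. Beside Aqp4 these were Aqp11, a channel of intracellular membranes, which went from 3.53 to 4.68 CPM in the NPCs to 12.3 to 74.8 CPM in the astrocytes (3.69, adjusted p = 0.00341), and Aqp1, the water channel of the choroid plexus (2.73, adjusted p = 0.0252, up to 3.62 CPM). Aqp5 and Aqp9 did not pass.

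Of 23 connexins and pannexins 16 could be tested, of which 3 rose, 1 fell and 12, the 3 members among them, did not pass (median 0.98). This is close to the share over all genes tested, of which 25.5% passed. Gja3, known as a lens connexin, was at 0.0122 to 0.0567 CPM in the poly(A) NPCs and at 27.0 to 131 CPM in the astrocytes (adjusted p = 0.000389). Gja5, known from vessels and heart, fell by 2.87 on the log2 scale (1.14 to 4.89 CPM against 0.163 to 0.613 CPM, adjusted p = 0.0118).

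The sodium pump list, to which Atp1b2 belongs, rose in 6 of 9 tested genes, none fell, and the median was 2.99. Atp1b1, the beta subunit of most tissues, went from 11.3 to 36.1 CPM in the NPCs to 121 to 300 CPM in the astrocytes (log2 fold change 2.99, SE 0.49, adjusted p = 0.00426). The regulatory subunit genes Fxyd1 (4.47, adjusted p = 0.0309) and Fxyd6 (1.59, adjusted p = 0.0204) rose as well. Atp1b3, another beta subunit, was at 120 to 183 CPM against 124 to 171 CPM and did not pass (adjusted p = 0.975).

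Of the 8 bicarbonate transporters tested 5 rose, none fell and 3, Slc4a4 among them, did not pass (median 0.94). Among those that rose were Slc4a8, a sodium-driven exchanger (2.36, adjusted p = 0.0018), and the anion exchangers Slc4a3 (1.24, adjusted p = 0.00452) and Slc4a2 (0.65, adjusted p = 0.0168). In this order they were at 29.0 to 54.9, 44.5 to 65.8 and 98.8 to 136 CPM in the astrocytes. Slc4a10 (4.75, adjusted p = 0.0024, edgeR) and Slc4a5 (1.90, adjusted p = 0.0422, edgeR) rose too, but were scarce, at up to 1.60 and 0.349 CPM in the astrocytes.

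The folate enzymes, the pathway of Aldh1l1, had 6 lower and 2 higher genes of 16 tested (median -0.83). Shmt1, which makes one-carbon units in the cytosol, went from 49.7 to 58.4 CPM to 2.40 to 9.97 CPM (-3.40, adjusted p = 0.00136). Tyms, which makes thymidylate, fell with it (-3.0, adjusted p = 5.02e-05). Aldh1l2, the mitochondrial counterpart of Aldh1l1, rose instead, from 3.55 to 11.2 CPM to 18.8 to 82.1 CPM (2.81, adjusted p = 0.00966).

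The 18 tested endfoot and junction partners split into 6 higher, 2 lower and 10 not passing (median 0.52). Agrn, a matrix proteoglycan of the endfoot (2.16, adjusted p = 0.00295), and Dtnb, a dystrobrevin (1.59, adjusted p = 0.00163), rose, and Gpr37l1, a glial receptor, fell by 2.59 (adjusted p = 0.0186). Kcnj10, the potassium channel of endfeet, was at 0.137 to 4.44 CPM against 3.34 to 7.24 CPM and did not pass (adjusted p = 0.218), nor did Mlc1 at 143 to 768 against 329 to 485 CPM (adjusted p = 0.952).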

How the data were processed

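RNA was sequenced from the cells of 12 clones in 16 libraries, with samples grouped by their labels. According to the study's methods the authors built stranded libraries, masked the mouse genome (GRCm38/mm10) at SNPs between the strains, aligned reads with TopHat2 2.1.0 and Bowtie2, assigned them to an allele with SNPsplit and counted them per gene and strand with featureCounts 1.5.1. The annotation version is not given in the sources used here. Per the file headers, the deposited counts are those of each allele and of the total per gene, for 50600 genes, without normalisation. The authors also deposited the Cast fraction where at least 10 allele-specific reads were present, which was used only as a check and equalled Cast reads over allele-specific reads within 5e-07.

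The 7 members, the lists and the tests were chosen with earlier results of these data known. CPM are all reads over the sum of reads on genes. A symbol was found for 32722 genes and a RefSeq position on GRCm38.p6 for 23350. No stretch of 75 bases of the members' protein-coding reference transcripts occurred in those of other genes. Transcripts that do not code for protein were not searched. Expression was tested with edgeR 4.0.16 (quasi-likelihood, TMM, its filter on low counts), with all reads of the 5 astrocyte and 3 poly(A) NPC libraries, and separately between the Ch clones. Shares were tested with the same method on Cast and 129 reads, with the clone or library as a block, equal library sizes and at least 20 allele-specific reads in each clone. P-values were adjusted by Benjamini and Hochberg over all genes tested, at a threshold of 0.05. Shares of single clones have 95% Wilson intervals, and a count of 0 allows up to 3 reads. The scripts were tested on simulated data.

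Named beside the members were, from each related list, up to 4 other genes past the test with the largest change and a mean of at least 1 CPM, and for each member the 3 genes of most similar pattern. A few genes covered by the rule are left unreported. Aqp5, Aqp9, Atp1b3, Kcnj10, Mlc1, Slc4a5, Slc4a10 and the marker genes were named after their values were seen. Alternatives were DESeq2 1.42.0, limma 3.58.1, other normalisations, filters, read minima and covariates, and leaving out each library or clone. Restricting shares to autosomal genes, and leaving out mG2 and G4 together, were added after seeing the data. The scripts ran in R 4.3.3 and in Python 3.11.15 with statsmodels 0.14.6, pandas 2.3.3 and matplotlib 3.10.9.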

Additional observations from a re-analysis of the deposited data

Results flagged for a closer look

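Of 24 groups of clones in which the level or the Cast share of a member was examined, 3 held a value set apart from the rest by a gap of most of the range. The limit used, Dixon's 95% critical value, is passed by chance in about 1 in 20 groups of normally distributed values, which groups with several values at 0 are not. The Cast share of Gja1 in the astrocyte clone C2, 0.262%, was 1 of them (gap over range 0.757, n = 5). The level of Slc4a4 in the astrocyte clone 129, 16.0 CPM, was another (0.751, n = 5). The third was the level of Gjb6 in Ch8, 0.0386 CPM, which is 2 reads where the other 3 Ch clones had 0, so that the gap is the whole range.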

How the results depend on the processing

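Of the 7 genes 3 passed the test of level between astrocytes and poly(A) NPCs, and 2 to 4 did when a library was left out. Over all genes that count of 4644 ranged from 2269 to 4849. The fold changes without a library ranged from -1.04 to 1.91 for Gjb2 and from -0.24 to 0.22 for Slc4a4, which was 0.040 with sex added. For the difference in share they ranged from -0.94 to 0.14 for Gja1, -0.16 to 0.44 for Aldh1l1 and -0.067 to 0.027 for Atp1b2, none of them called in any of these fits. Aldh1l1 was at -0.22 with mG2 and G4 both left out, where 2 genes of all passed in place of 77, a count that ranged from 5 to 82 without a clone. Against equal shares in the astrocytes, 1 to 2 of the 7 genes passed without a clone in place of 3, and 2001 to 2967 of all genes in place of 3396, with Slc4a4 between -0.064 and 0.11. Between the Ch clones the count of 2834 genes became 4361 with no filter and 1509 to 3244 without a library. For shares between the Ch clones Aqp4 was the 1 member called, and 0 to 1 were without a library and 0 with a minimum of 50 reads, which Aqp4 does not reach. The cause of the other changes was not tested. The library numbers of the Ch clones did not pair the samples (correlations of deviations from -0.18 to 0.28 over 6 pairs). With the replicate block 3391 genes passed for level and 1005 in place of 1012 for shares, 5 members passed for level in place of 4, since Slc4a4 did (adjusted p = 0.0164), and 1 for shares. Scarce reads limit Gjb6, Gjb2 and, in the NPCs, Aqp4. The astrocyte values rest on 1 library per clone.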
